A study of Mus musculus with 6 samples.

Results

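A set of 10 genes of the gut's hormone cells was followed, namely the granule proteins Chga and Chgb, the peptide hormone genes Tac1, Cck, Sct, Pyy, Ghrl and Gcg, the serotonin enzyme gene Tph1, and Reg4. They were listed by name, with earlier results of these data known, and they are 10 of the 54838 gene identifiers in each count table. The libraries came from Lgr5-eGFP-IRES-CreERT2 mice (strain B6.129P2-Lgr5tm1(cre/ERT2)Cle/J), in which the Lgr5 gene drives both a green fluorescent protein and a tamoxifen-activated Cre recombinase. This allele was shared by every library, and the Lgr5 promoter therefore sets which cells carry the label. Cells with high fluorescence were sorted from the intestines of 4 pooled mice per replicate and labelled as intestinal stem cells, and about 200000 of them were set in Matrigel at 20000 per well in drops of 10 µL. The medium of both groups held 1 µM JAG-1, a Notch ligand peptide, and 3 µM CHIR99021, an inhibitor of the kinase GSK3 that activates Wnt signalling. After 4 hours the cells received either 30 µM INT-777, an agonist of the bile acid receptor TGR5 (gene Gpbar1), or DMSO, its solvent. The exposure is labelled as 12 hours on the samples and as 16 hours in the series design. The whole experiment was done on 3 days, each giving 1 DMSO and 1 INT-777 library, so that a replicate number stands for a day. The labels give no age for the mice.

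Enteroendocrine cells are rare secretory cells of the gut lining that arise from the same Lgr5-positive stem cells as absorptive, goblet and Paneth cells. Their fate is set by Neurog3 and then by Neurod1, and Notch signalling holds stem cells back from it. Chromogranins A and B (Chga, Chgb) pack the dense-core granules from which the hormones are released. Bile acids acting on TGR5 are known for causing release of the Gcg product GLP-1 from mature L cells, which also make Pyy. Because each library here is made from many cells, fewer cells of a type and less RNA per cell cannot be told apart.

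Positions are given on the mouse build GRCm38. Chga spans chr12:102554969-102565028 on the plus strand, Chgb chr2:132781278-132795079 plus, Tac1 chr6:7554879-7565834 plus, Cck chr9:121489824-121495694 minus and Sct chr7:141278330-141279133 minus. Pyy spans chr11:102106676-102107832 minus, Ghrl chr6:113716119-113719880 minus, Gcg chr2:62474530-62483650 minus, Tph1 chr7:46644641-46672537 minus and Reg4 chr3:98222156-98236748 plus. The span of Ghrl is crossed on the other strand by Gm26982 and Gm44033, and the counts used ignore strand, so reads from Ghrl and from those genes cannot be told apart where they overlap. Pairs that were ambiguous between genes were left out of the counts, so Ghrl may have lost some there.

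The 250 bases before the start site are shown for a granule gene (Chga), for a pair of hormone genes (Cck, Gcg), and for the genes with the largest fall and rise under INT-777 (Reg4 and Pyy), because several members moved together between days and others moved apart with the treatment. The sequences are from RefSeq (build GRCm38.p6), where all 10 members matched by symbol, and run 5′ to 3′ on the gene's strand. Capitals mark, on either strand, 4 motifs. TGACGTCA is the full cyclic AMP response element. Its first part, TGACG, was also searched alone. A form of the E-box bound by Neurod1 and related factors reads CAGATG. The TATA box was searched as TATAAA. A match on the opposite strand shows the complement, as CGTCA in Cck.
Chga chr12:102554691-102554940 plus: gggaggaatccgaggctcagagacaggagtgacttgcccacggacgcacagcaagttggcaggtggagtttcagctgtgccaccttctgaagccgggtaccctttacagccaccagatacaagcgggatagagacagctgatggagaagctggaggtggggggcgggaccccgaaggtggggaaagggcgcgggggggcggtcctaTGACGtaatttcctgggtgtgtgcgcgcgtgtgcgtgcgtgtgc
Cck chr9:121495695-121495944 minus: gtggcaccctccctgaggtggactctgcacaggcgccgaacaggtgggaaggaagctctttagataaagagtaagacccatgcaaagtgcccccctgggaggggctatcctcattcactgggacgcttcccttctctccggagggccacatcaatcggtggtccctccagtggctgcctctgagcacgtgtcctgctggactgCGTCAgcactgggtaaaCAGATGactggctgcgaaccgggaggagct
Gcg chr2:62483654-62483903 minus: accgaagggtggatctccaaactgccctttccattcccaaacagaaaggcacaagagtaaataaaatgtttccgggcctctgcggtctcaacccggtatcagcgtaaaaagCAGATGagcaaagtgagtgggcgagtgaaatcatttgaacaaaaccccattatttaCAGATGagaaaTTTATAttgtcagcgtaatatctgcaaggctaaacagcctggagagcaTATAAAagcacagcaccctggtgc
Reg4 chr3:98221906-98222155 plus: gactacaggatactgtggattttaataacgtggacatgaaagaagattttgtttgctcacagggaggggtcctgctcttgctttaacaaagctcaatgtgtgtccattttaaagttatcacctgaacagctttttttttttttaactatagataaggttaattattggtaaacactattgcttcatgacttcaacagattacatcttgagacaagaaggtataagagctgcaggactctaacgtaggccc
Pyy chr11:102107833-102108082 minus: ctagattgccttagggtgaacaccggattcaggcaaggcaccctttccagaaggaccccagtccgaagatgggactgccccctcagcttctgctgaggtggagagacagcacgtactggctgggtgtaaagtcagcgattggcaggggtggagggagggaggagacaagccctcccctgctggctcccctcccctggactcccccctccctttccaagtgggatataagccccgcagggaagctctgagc
The full cyclic AMP element stood in the window of 1 of the 10 members, Chgb, 72 bases before the RefSeq start site used here, and 1.55% of the 32851 start-site windows of this length in the table hold it. That start site lies 364 bases inside the Chgb span given above, whose start is from GENCODE, so the element is within the gene by that annotation. The RefSeq start of Tac1 likewise lies 182 bases inside its span. The element is shown with 11 bases on each side.
Chgb chr2:132781559-132781588 plus: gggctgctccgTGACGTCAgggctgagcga
The part TGACG, which every full element contains, was present in 5 of 10 members (Chga, Chgb, Tac1, Cck and Tph1), against 17.8% of all windows. In Chga it begins 44 bases and in Cck 47 bases before the start. CAGATG was present in 4 of 10 members (Tac1, Cck, Sct and Gcg), against 14.4% of all windows, and Gcg holds it at 139 and at 83 bases before its start. TATAAA was present in Sct and Gcg, against 12.4% of all windows. None of these 4 motifs was found in the windows of Reg4, Pyy or Ghrl, which says only that these letters are not there. A match of letters is a description, not a measured binding site.

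Depth was even, with 45682340 to 47905087 read pairs counted on genes per library, but the libraries of day 3 stood apart from those of days 1 and 2 in both groups. Their RNA integrity numbers were 8.7 (DMSO) and 9.0 (INT-777), against 9.2 to 9.6 on the other days. Of 15998 genes tested, 20.5% differed between days at an adjusted p under 0.05 (edgeR's quasi-likelihood test with Benjamini-Hochberg adjustment, allowing for treatment), and 11.9% were called and higher on day 3. Of 15 goblet cell markers, 14 rose on day 3 in the same test, and the summed level of the 15 was 5772, 5687 and 28643 CPM on days 1, 2 and 3 under DMSO and 3081, 2979 and 12705 CPM under INT-777. CPM here is counts per 1000000 counted pairs, scaled between libraries by edgeR's TMM factors. The summed level of 12 stem cell markers was high throughout and slightly lower on day 3. It was 3003, 2981 and 2564 CPM under DMSO and 2641, 2608 and 2151 CPM under INT-777. Slc12a2 made up much of this sum, at 1619, 1585 and 1252 CPM under DMSO and 1403, 1379 and 996.6 CPM under INT-777. In the test between days, 6 of the 12 were called and lower on day 3 and 1 was higher. Neurons also make chromogranins and Tac1. Of 15 neuron and glia genes, 8 could be tested and 5 of these rose on day 3, with Nefm at 211, 190 and 821 counts under DMSO and Ret at 179, 174 and 565. Among the others, Sox10 was at 0 in every library and Chat, Stmn2 and Nos1 had at most 3 counts in any library. The sum over the list ran from 11.5 to 12.5 CPM on days 1 and 2 of DMSO, 42.8 CPM on its day 3, and 9.73, 9.82 and 33.2 CPM under INT-777. Immune cell genes were low, with a sum over 17 genes of 3.19, 3.80 and 10.2 CPM under DMSO and 3.33, 4.07 and 10.1 CPM under INT-777. Cd68 made up most of this sum on days 1 and 2, at 2.93, 3.41 and 2.89 CPM under DMSO and 3.03, 3.61 and 3.64 CPM under INT-777. The sum therefore understates the rise of the other genes on day 3, and several appeared almost only on that day. Ptprc had 0, 0 and 70 counts under DMSO and 3, 4 and 61 under INT-777, and Gzma 0, 0 and 79 and then 0, 0 and 75. The part that other cell types and RNA quality have in the values below was not tested.

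The granule genes Chga and Chgb were about 4 times as high on day 3 as on days 1 and 2 in both groups. Chga was at 72.1, 72.4 and 317 CPM on days 1, 2 and 3 under DMSO and at 77.6, 79.9 and 303 CPM under INT-777. Chgb, the most abundant member, was at 411, 422 and 1923 CPM under DMSO and at 377, 375 and 1403 CPM under INT-777. For both genes the day 3 libraries were far above the other 4, and the treatment groups overlapped. The rise on day 3, fitted over both groups, was 2.04 ± 0.05 (SE) on the log2 scale for Chga, a 4.11-fold change, and 2.05 ± 0.06 for Chgb. In edgeR's F-test for any difference between days, the adjusted p was 7.11e-13 for Chga and 7.3e-11 for Chgb. With day 3 a single day, these values do not measure how much days vary.

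Most hormone genes followed. Tac1, which encodes substance P and is made by enterochromaffin cells, was at 31.2, 30.4 and 134.5 CPM under DMSO and at 30.7, 34.2 and 144.8 CPM under INT-777. Cck, the cholecystokinin gene of I cells, was at 32.6, 34.5 and 120.8 CPM and at 29.5, 29.7 and 109.4 CPM. Tph1, the rate-limiting enzyme of serotonin synthesis outside the brain, was at 20.5, 21.9 and 88.7 CPM and at 15.8, 18.4 and 62.2 CPM. These genes, too, were high on day 3 alone, and their groups overlapped. Reg4, a secreted lectin of enteroendocrine, goblet and deep crypt secretory cells, was at 133, 119.5 and 565 CPM under DMSO and at 54.6, 57.4 and 199.7 CPM under INT-777. Every INT-777 library of Reg4 was below the DMSO library of its own day, although the INT-777 library of day 3 was above the DMSO libraries of days 1 and 2.

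The remaining hormones had smaller or no changes between days, or low counts. Gcg, which encodes proglucagon, the precursor of GLP-1, was at 56.2, 55.4 and 155.7 CPM under DMSO and at 57.5, 64.5 and 122.7 CPM under INT-777. Sct, the secretin gene, was at 4.08, 3.95 and 11.8 CPM and at 3.22, 3.36 and 9.52 CPM. Ghrl, the ghrelin gene, was at 1.35, 1.26 and 5.74 CPM and at 2.27, 2.25 and 6.66 CPM. Pyy, which encodes peptide YY of L cells, stood apart from all of these, at 1.95, 2.60 and 2.35 CPM under DMSO and at 3.71, 3.40 and 4.67 CPM under INT-777. Its counts were 90, 120 and 109 against 175, 162 and 218, and it was the only member whose INT-777 libraries all lay above its DMSO libraries; 24.5% of all tested genes had groups that did not overlap in either direction.

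**Figure D1:**
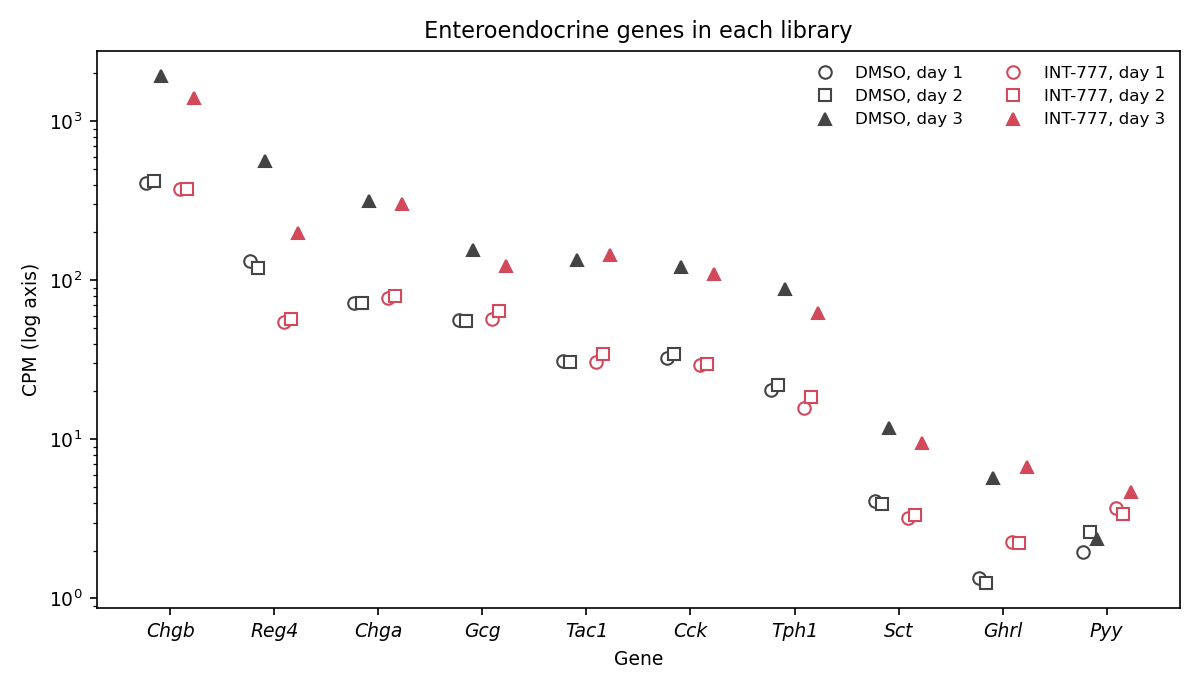
Normalised level (TMM CPM, log axis) of each of the 10 genes in the 6 libraries, by day and treatment. Day 3 is far above days 1 and 2 for 9 genes, and for Pyy the INT-777 libraries (3.40 to 4.67 CPM) lie above the DMSO libraries (1.95 to 2.60 CPM).

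Of the 10 members, 9 rose on day 3 in the fit over days, against 11.9% of all tested genes. The fold was 4.42 for Tac1, 4.16 for Chgb, 4.11 for Chga, 4.02 for Reg4, 3.91 for Tph1, 3.65 for Cck, 3.54 for Ghrl, 2.92 for Sct and 2.38 for Gcg. Pyy did not pass edgeR's F-test for any difference between days (adjusted p = 0.488), and its log2 difference on day 3 was 0.24 ± 0.15 (SE). The median over the 10 genes was 1.92 on the log2 scale, beside 0.01 over all tested genes. This is a difference between 1 day and 2 other days, so day 3 counts as a single experiment.

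Set per kilobase of exon, so that genes can be compared, the mean levels over the 6 libraries were 298.8 CPM per kb for Chgb, 184.3 for Reg4, 57.1 for Gcg, 55.7 for Chga, 45.5 for Cck, 19.9 for Tac1, 9.30 for Sct, 6.15 for Tph1, 4.94 for Pyy and 3.01 for Ghrl. Chgb was above Reg4, Reg4 above Gcg, Cck above Tac1, Tac1 above Sct and Sct above Tph1 in all 6 libraries. Gcg was above Chga in 4 libraries of 6 and Tph1 above Pyy in 3 of 6, so neither pair had a fixed order. Chga was above Cck and Pyy above Ghrl in 5 libraries of 6.

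The study asked which genes INT-777 changes. With the 3 libraries of each treatment compared as groups, none of the 10 members passed an adjusted p of 0.05 in edgeR's quasi-likelihood test, against 0.688% of all tested genes called higher and 0.763% called lower. Pyy alone had an unadjusted p under 0.05, against 16.4% of all tested genes (0.00288; adjusted p = 0.0979, log2 difference 0.77 ± 0.18 SE). DESeq2 called 1 member, Pyy, as higher (adjusted p = 0.0167), against 2.31% of all genes, and limma-voom called none, against 1.34% of all genes in either direction. For the genes that rise on day 3 the spread between days is inside this error: for Reg4 the difference was -1.39 ± 0.92 (SE) on the log2 scale (edgeR adjusted p = 0.518), and it ranged from -2.29 without the INT-777 library of day 3 to -0.30 without the DMSO library of day 3. Without both libraries of day 3, the same test called 4 members higher (Pyy, Ghrl, Chga and Gcg) and 4 lower (Reg4, Tph1, Chgb and Cck), against 13.9% and 12.9% of all genes tested there.

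With the day as a block, which compares the libraries within each day, 2 members rose and 5 fell, against 11.1% of all tested genes higher and 10.3% lower (edgeR's quasi-likelihood test). The 2 that rose were Pyy and Ghrl, and the 5 that fell were Reg4, Tph1, Sct, Chgb and Cck. The treatment difference was not called for Chga, Tac1 and Gcg. The median log2 difference over the 10 genes was -0.10, beside 0.00 over all tested genes. DESeq2 with the same block called 1 higher (Pyy) and 4 lower (Reg4, Tph1, Chgb and Cck), against 6.95% and 7.26% of all genes, so Ghrl and Sct rest on the choice of tool.

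Reg4 fell by 1.29 ± 0.07 (SE) on the log2 scale within days, a level 2.45-fold lower (edgeR adjusted p = 8.13e-06). On days 1, 2 and 3 it stood at 0.410, 0.480 and 0.354 times the level of that day's DMSO library. The fall was present on every day and larger than that of any other member. Goblet cells also make Reg4, and 15 of 15 goblet cell markers were lower under INT-777 on all 3 days, against 25.3% of all tested genes, and 13 passed the same test, against 10.3%. Their part in the fall of Reg4 was not tested.

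Tph1 fell by 0.39 ± 0.06 (SE) within days, a 1.31-fold lower level (edgeR adjusted p = 0.000272), with log2 differences of -0.37, -0.26 and -0.51. Chgb fell by 0.25 ± 0.06 (adjusted p = 0.00723), with -0.12, -0.17 and -0.45. Both kept their call when any 1 day was left out. Such fits have fewer libraries, yet their adjusted p could be smaller, for Chgb 4.87e-06 without day 1 (edgeR with the day as a block). They leave little room to measure how the difference varies between days, so a kept call says little about that. Cck fell by 0.17 ± 0.05 (adjusted p = 0.0207), with the nearly even log2 differences -0.14, -0.22 and -0.14, and lost its call without day 2 (adjusted p = 0.203). Sct fell by 0.30 ± 0.10 (adjusted p = 0.0452), with -0.34, -0.23 and -0.31, and lost its call without day 1, 2 or 3, at adjusted p = 0.133, 0.126 and 0.112.

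Pyy rose by 0.77 ± 0.15 (SE) on the log2 scale within days, to a level 1.70-fold higher (edgeR adjusted p = 0.00167). It stayed called without any 1 day, in fits with the limit given above for Tph1 and Chgb. Its log2 differences on days 1, 2 and 3 were 0.93, 0.39 and 0.99. The 95% counting interval of each day's difference lay above 0, from 0.04 to 0.74 on day 2, where it came nearest to 0. Such intervals cover counting error only. Ghrl rose by 0.52 ± 0.15, to 1.43-fold (adjusted p = 0.0236), with 0.75, 0.84 and 0.21 on the 3 days, and the day 3 interval, -0.03 to 0.46, included 0. Without day 3 the difference in Ghrl was 0.79 (adjusted p = 0.00231), and it lost its call without day 1 (0.055) or without day 2 (0.154).

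Chga differed by 0.06 ± 0.05 (SE; edgeR adjusted p = 0.446) within days and Tac1 by 0.09 ± 0.05 (adjusted p = 0.247). Without day 3, Chga was called higher, at a log2 difference of 0.12 (adjusted p = 0.0364). Gcg, whose product TGR5 agonists are known to release, differed by -0.04 ± 0.11 (adjusted p = 0.84). Its log2 differences were 0.03 on day 1, 0.22 on day 2 and -0.34 on day 3, so no single direction describes it. Within days 1 and 2 alone the difference in Gcg was 0.12 (adjusted p = 0.0609).

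**Figure D2:**
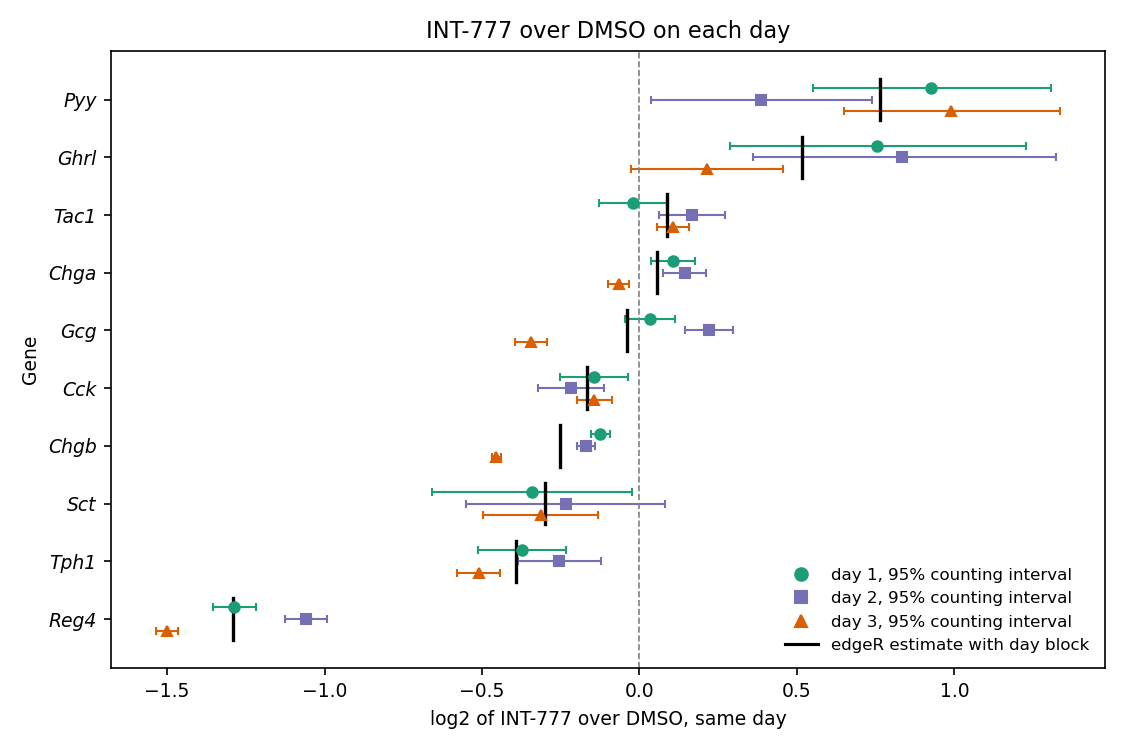
Log2 ratio of INT-777 to DMSO within each day for each gene, with 95% counting intervals. Reg4, which lies lowest, Tph1, Chgb, Cck and Sct are below 0 on all 3 days, Pyy and Ghrl above 0 on all 3, and Gcg changes side on day 3.

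By direction alone, 5 members were lower under INT-777 on all 3 days, against 25.3% of all tested genes, and 2 were higher on all 3, against 26.8%. Whether the effect of INT-777 on day 3 differed from that on days 1 and 2 was tested with an interaction term, which called 3 of 10 members, against 5.7% of all tested genes. Each was more negative on day 3: Gcg by -0.47 ± 0.07 (SE, log2; edgeR adjusted p = 4.27e-08), Reg4 by -0.33 ± 0.07 (adjusted p = 0.000237) and Chgb by -0.31 ± 0.07 (adjusted p = 0.000576). DESeq2 called only Chgb among the members, with an adjusted p of 0.049. This test has 1 residual degree of freedom, so its error rests on how alike the libraries of days 1 and 2 were.

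**Figure D3:**
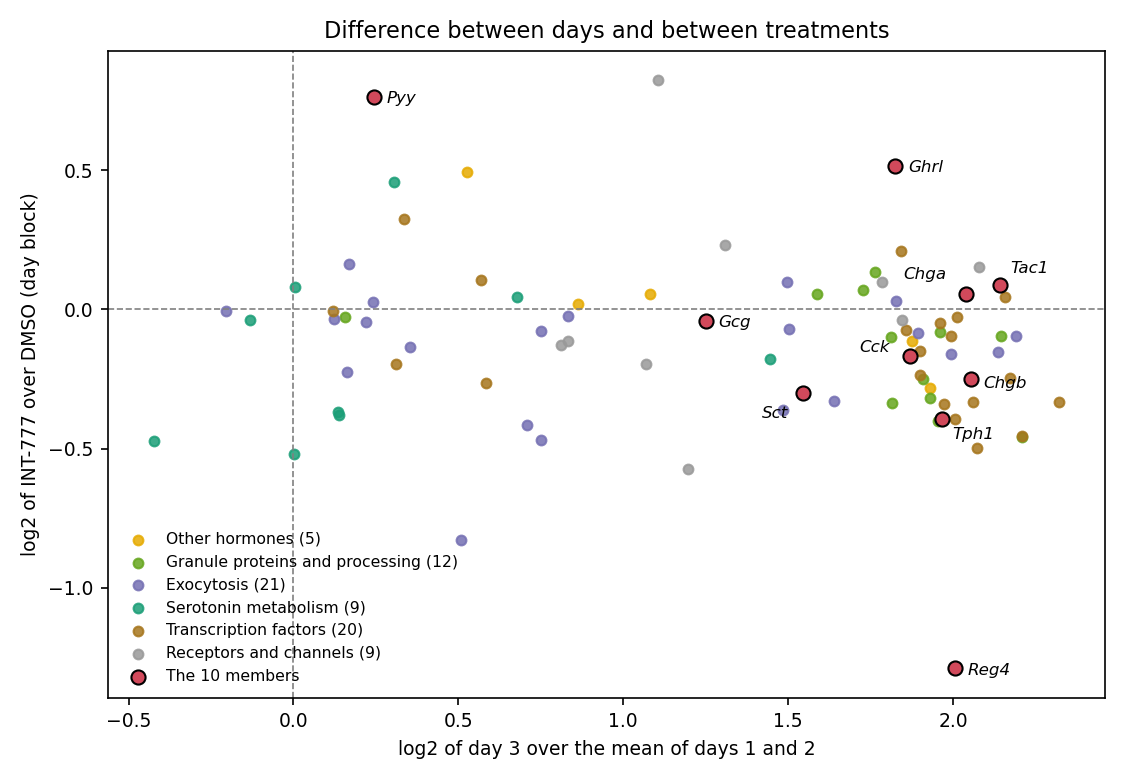
Log2 difference of day 3 from days 1 and 2 (horizontal axis) against the log2 difference of INT-777 from DMSO within days (vertical axis) for the members and the other listed hormone cell genes. Reg4 lies lowest at -1.29, and Pyy lies highest among the members at 0.77 with a day difference of 0.24.

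Because the granule genes moved together with day, each member was also set relative to Chga in its own library. Reg4 stood at 1.85, 1.65 and 1.78 times the CPM of Chga on the 3 days under DMSO and at 0.703, 0.718 and 0.660 times under INT-777. On this scale day 3 lay close to the other days, and the groups did not overlap. Chgb stood at 5.70, 5.84 and 6.07 times Chga under DMSO and at 4.86, 4.70 and 4.63 times under INT-777. Tph1 stood at 0.285, 0.303 and 0.280 times and at 0.204, 0.230 and 0.206 times. Both were lower relative to Chga in every INT-777 library than in any DMSO library. Cck, at 0.451, 0.477 and 0.381 against 0.379, 0.371 and 0.362, was lower by a narrow margin, and Ghrl, at 0.0187, 0.0174 and 0.0181 against 0.0292, 0.0281 and 0.0220, was higher. These 5 of the 9 other members had groups that did not overlap, and each gave an exact permutation p of 0.10 (two-sided), the smallest that 3 libraries against 3 allow. That test exchanged libraries freely across days and so did not use the pairing by day. Of all other tested genes 1.26% had groups that did not overlap on this scale, but most of them do not follow Chga between days, so the shares are not like for like. Sct overlapped between the groups but was lower in the INT-777 library of each day, at 0.0566, 0.0546 and 0.0373 against 0.0415, 0.0420 and 0.0315. Pyy overlapped but was higher on each day, at 0.0271, 0.0360 and 0.0074 against 0.0478, 0.0426 and 0.0154. Tac1 and Gcg had no common direction over the days, and Tac1 stayed closest to Chga, at 0.432, 0.421 and 0.424 under DMSO and 0.396, 0.428 and 0.478 under INT-777.

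**Figure D4:**
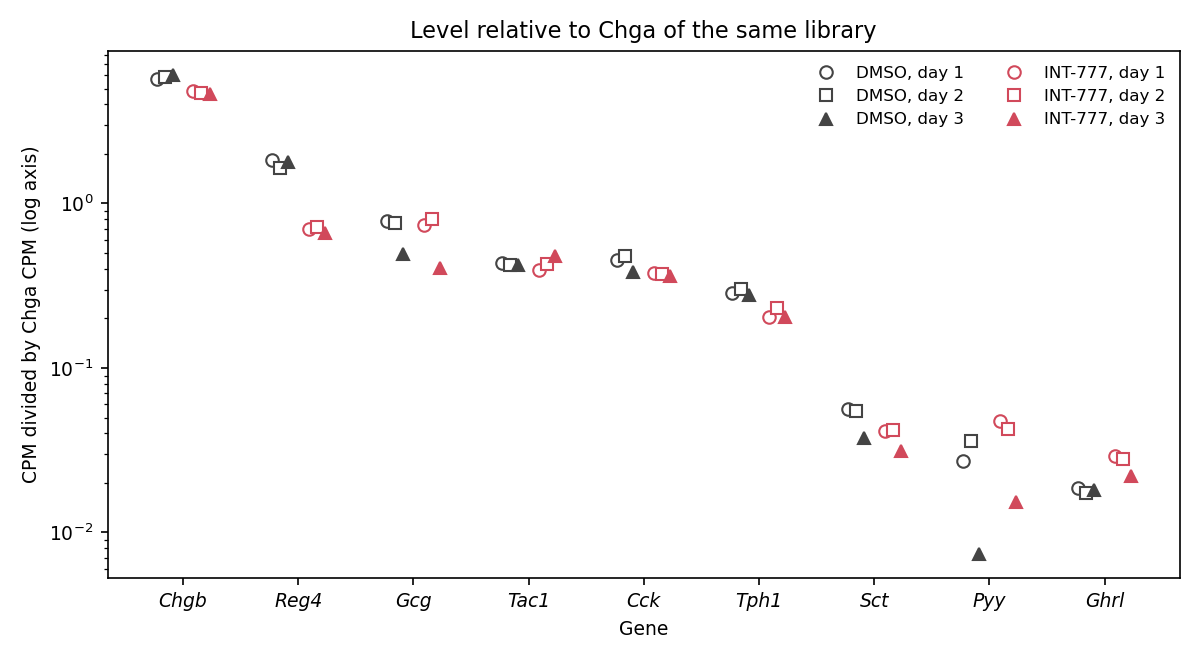
Level of each of the 9 other members relative to Chga in the same library (ratio of CPM, log axis), by day and treatment. Reg4 lies between 1.65 and 1.85 under DMSO and between 0.660 and 0.718 under INT-777, whereas Tac1 lies between 0.396 and 0.478 in all 6 libraries.

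The share of each peptide in the summed message of 9 hormone genes (6 of the members with Sst, Gip and Nts, as CPM per kb) was led by Gcg and Cck. Gcg made up 36.1%, 35.0% and 32.2% of the sum under DMSO on days 1, 2 and 3 and 37.5%, 39.5% and 28.1% under INT-777. Cck made up 24.0%, 25.0% and 28.6% under DMSO and from 20.8% to 28.6% under INT-777. In both groups the share of Gcg was lowest and that of Cck highest on day 3. Pyy made up 2.98%, 3.90% and 1.15% under DMSO and 5.73%, 4.92% and 2.53% under INT-777. Its share was larger in the INT-777 library of every day, while the groups overlapped. Gip, the incretin gene of K cells, made up 12.6% and 12.4% on days 1 and 2 of DMSO and 5.38% on day 3, and it stood at 8.99%, 9.35% and 10.6% under INT-777. Its level did not fall on day 3, at 8.99, 9.03 and 12.0 CPM under DMSO and 6.34, 7.03 and 21.4 CPM under INT-777. The sum itself was 104.1, 105.9 and 323.8 CPM per kb under DMSO and 102.7, 109.4 and 292.8 CPM per kb under INT-777.

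**Figure D5:**
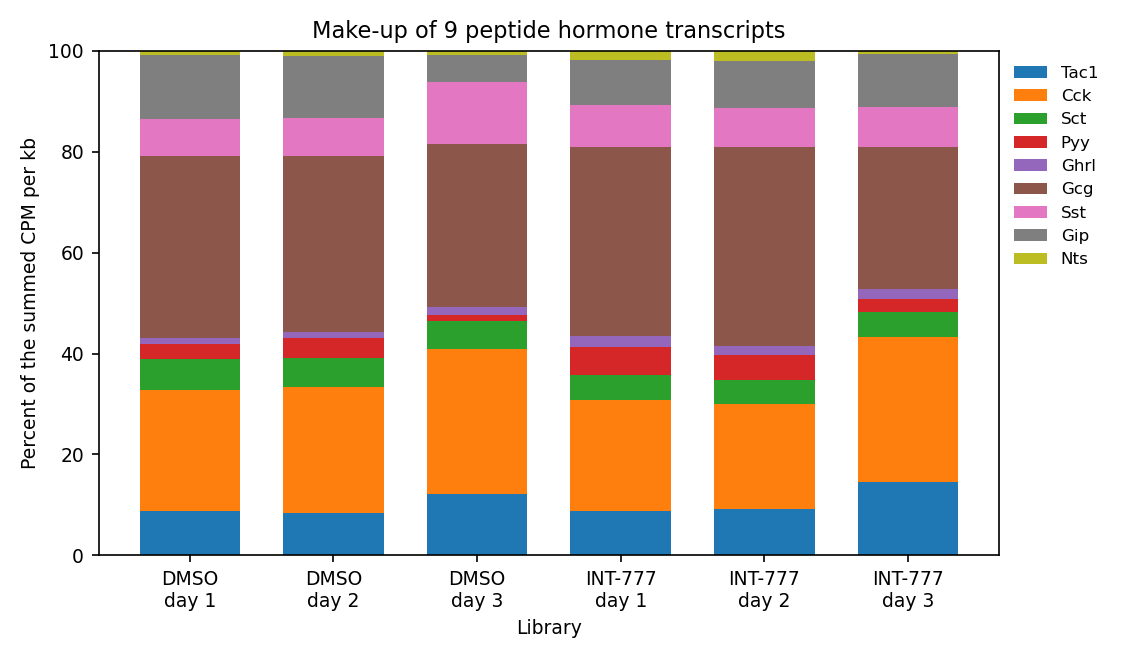
Share (%) of each of 9 hormone genes in their summed CPM per kb, 1 bar per library. Gcg and Cck take the largest shares in every library, and Gip has its lowest share, 5.38%, in the DMSO library of day 3. The sum is largest in that library, at 323.8 CPM per kb, so a lower share there is not a lower level of Gip.

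Other genes of the same pathway were read from lists. Of 11 further hormone genes, 5 were high enough to test, 0 passed with the day as a block in edgeR, 0 had an unadjusted p under 0.05 there, and 0 passed in DESeq2. Nts, the neurotensin gene, had 51, 60 and 139 counts under DMSO and 112, 130 and 101 under INT-777, and without day 3 it was called higher (adjusted p = 3.21e-05). Sst, the somatostatin gene, was at 5.58, 5.67 and 29.0 CPM and at 6.13, 6.05 and 16.6 CPM. It was called lower without day 1 or day 2 (edgeR with the block, adjusted p = 0.000908 and 0.00661). Its log2 differences on days 1, 2 and 3 were 0.13, 0.09 and -0.80, so each of these calls rests on day 3 alone. Nts and Sst both had overlapping groups, and their direction differed between day 3 and the other days.

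Of 13 granule and prohormone-processing genes, 12 were tested, 11 rose on day 3, against 11.9% of all tested genes, and 2 fell under INT-777 within days, against 10.3%. These were Pcsk1, the convertase that cuts prohormones, and Ptprn2, a granule membrane protein. Pcsk1 was at 18.3, 18.7 and 71.7 CPM under DMSO and at 16.2, 14.0 and 56.5 CPM under INT-777, and it fell by 0.32 ± 0.06 (SE, log2; edgeR adjusted p = 0.00165). Ptprn2 was at 20.0, 19.7 and 77.8 CPM and at 17.0, 17.4 and 53.8 CPM, and it fell by 0.34 ± 0.07 (adjusted p = 0.00263). Both had overlapping groups, since day 3 was high in each group. The list's median log2 difference within days was -0.10, beside 0.00 over all tested genes.

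Of 21 genes of granule docking and release, 6 fell within days, against 10.3% of all tested genes, and 0 rose, against 11.1% (edgeR with the day as a block). DESeq2 with the block called 4 lower, without Snap25 (adjusted p = 0.106) and Rab3b (adjusted p = 0.125), and 0 higher, and 0 rose at an unadjusted p under 0.05 in edgeR. The median log2 difference was -0.09. Rab27b, a small GTPase that tethers granules, fell by 0.47 ± 0.06 (SE, log2; adjusted p = 3.22e-05), Rab3d by 0.41 ± 0.04 (adjusted p = 9.89e-06) and the SNARE protein gene Snap25 by 0.36 ± 0.11 (adjusted p = 0.0249). The other genes of this list that fell were Rab3b, Unc13b and Cplx2. With 1 day left out, Rab3b lost its call without day 1 or 3, Snap25 without day 1 and Cplx2 without day 2. On day 3, 15 of the 21 rose, against 11.9% of all tested genes, and Cadps2 fell. Several of these genes serve secretion in goblet and Paneth cells too. Within days, 13 of 15 goblet and 6 of 11 Paneth cell markers fell, against 10.3% of all tested genes, and 0 of either list rose, against 11.1%. The part of these cells in the falls above was not tested.

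Of 9 genes of serotonin synthesis, transport and breakdown, 1 rose and 4 fell within days, against 11.1% and 10.3% of all tested genes, and the median log2 difference was -0.18. Maoa, which breaks serotonin down, was at 159.8, 158.3 and 143.7 CPM under DMSO and at 103.7, 103.5 and 114.7 CPM under INT-777. Its groups did not overlap, which also held for others of this list, Maob, Gch1 and Pts among them, and for 24.5% of all tested genes. Maoa was the only gene of these lists called without the block, at -0.52 ± 0.07 (SE, log2; edgeR adjusted p = 0.0160). That call was lost without the libraries of day 1 (adjusted p = 0.511) or of day 2 (adjusted p = 0.454). Within days it fell with an adjusted p of 1.75e-05 in edgeR. Gch1, which starts synthesis of the cofactor used by Tph1, was at 24.7, 23.3 and 29.2 CPM and at 32.4, 32.9 and 40.9 CPM, and it rose by 0.46 ± 0.06 within days (adjusted p = 3.77e-05). Pts, a later enzyme of the same cofactor pathway, fell by 0.37 ± 0.07 (adjusted p = 0.000992), and the serotonin transporter gene Slc6a4 by 0.47 ± 0.09 (adjusted p = 0.00155). Maob, the other monoamine oxidase, fell by 0.38 ± 0.07 (adjusted p = 0.0014). Maoa did not pass the test between days (edgeR adjusted p = 0.996), and absorptive cells also make Maoa, Maob and Slc6a4. Of 13 tested absorptive cell markers 6 fell and 1 rose within days, against 10.3% and 11.1% of all tested genes. By direction alone, 7 were lower on all 3 days and 2 (Alpi and Fabp1) higher, against 25.3% and 26.8%. The summed level of the list was 2171, 2177 and 1746 CPM under DMSO and 1646, 1616 and 1356 CPM under INT-777. The difference in this sum rests largely on Anpep, at 804.4, 831.4 and 548.7 CPM under DMSO and 265.2, 259.9 and 164.6 CPM under INT-777. The part of absorptive cells in the values of Maoa, Maob and Slc6a4 was not tested.

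Of 21 transcription factors of the enteroendocrine line, 20 were tested, 18 rose on day 3, against 11.9% of all tested genes, and 6 fell within days under INT-777, against 10.3%, with a median log2 difference of -0.17. Neurog3, the factor that starts the line, was at 18.0, 16.4 and 73.2 CPM under DMSO and at 14.0, 15.2 and 52.2 CPM under INT-777. It was lower on every day, by 0.34 ± 0.07 (SE) on the log2 scale (edgeR adjusted p = 0.00276 with the day as a block). Nkx2-2 fell by 0.45 ± 0.08 (adjusted p = 0.00106), Myt1 by 0.39 ± 0.12 (adjusted p = 0.0241) and Rfx6 by 0.25 ± 0.08 (adjusted p = 0.044), and Sox4 and Foxa1 also fell. DESeq2 with the block called 4 of these 6, without Myt1 (adjusted p = 0.113) and Rfx6 (adjusted p = 0.139). Myt1 and Rfx6 lost their calls without day 2 or without day 3, and Foxa1 without day 2. Neurod1, further down the line, differed by -0.03 ± 0.09 (adjusted p = 0.872) and Insm1 by -0.07 ± 0.06 (adjusted p = 0.44). Of 13 receptor and channel genes, which include nutrient and bile acid sensors, 9 were tested. Of these, 0 passed within days in edgeR, 0 had an unadjusted p under 0.05 there, and 0 passed in DESeq2. Gpbar1, the TGR5 gene itself, had 4, 0 and 5 counts in the DMSO libraries and 4, 1 and 4 in the INT-777 libraries, too few to test.

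The genes whose log2 CPM followed that of Chga most closely over the 6 libraries, among 11825 compared, were Cyp4b1, the granule protein gene Scg2, Cd63, Neurod1 and Tac1, with Pearson's r between 0.998 and 0.999. Day 3 stands apart from the other days in this measure, so such values are high for many genes, and 421 genes had r above 0.95. Within days none of the 5 passed the treatment test. They were chosen for following Chga, itself not called, over the same 6 libraries, so this is no separate result.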

How the data were processed

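RNA of the 6 libraries was sequenced as read pairs of 100 bases on a BGISEQ-500, per the labels. The authors deposited raw counts per gene, made with STAR 2.73a on GRCm38 (mm10), per the submitters' processing notes, which also name FastQC and edgeR 3.24.3. The release of the gene annotation was not stated there. The count column that ignores strand was used, since the first strand held 50.09% to 50.59% of stranded counts. The 4 summary lines that name no gene were left out of library sizes, and the counts on genes were 74.52% to 75.65% of all pairs. They held unmapped pairs (10.29% to 11.31%), pairs mapped to several places (5.956% to 6.309%), pairs outside genes (3.323% to 3.831%) and ambiguous pairs (4.35% to 4.535%). Of 54838 Ensembl identifiers 54809 matched GENCODE M21, which gave symbols, positions and exon lengths.

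Genes were filtered with filterByExpr, scaled by TMM and tested in edgeR 4.0.16 (R 4.3.3) with the quasi-likelihood test, two-sided, with p-values adjusted over all tested genes by the Benjamini-Hochberg method at a threshold of 0.05. The treatment was fitted alone, then with the day as a block, then with a term for day 3. The labels give the day of each replicate number, so libraries with the same number are paired. Deviations from the group means correlated at 0.329, 0.369 and 0.632 within days, though days 1 and 2 were not told apart by this measure (0.336 and 0.364 across them). DESeq2 1.42.0, limma-voom (limma 3.58.1), other scalings and filters, and leaving out libraries or days were alternatives. The scripts were tested on simulated data. Intervals within a day are exact binomial at 95% and cover counting error only.

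The members and lists were chosen with earlier results of these data known. Besides the members, Lgr5 and Gpbar1, the rule for naming genes took from each list the 2 tested genes with the smallest p and every gene called with or without the block, and the 5 genes most like Chga with a mean of at least 1 CPM. Not every gene this rule allows is described, and some genes outside it are. Those outside it include Gip, Cpe, Cacna1d and Lmx1a, called in the interaction test, and Insm1, Cadps2, Iapp, Ucn3, Gast and Ppy.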

Additional observations from a re-analysis of the deposited data

Results flagged for a closer look

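The effect of INT-777 on day 3 differed from that on days 1 and 2 for 12 of the 86 tested genes of the hormone cell lists in edgeR's test of the interaction, or 14%, against 5.7% of all tested genes. The difference (day 3 minus days 1 and 2, log2) was -0.47 for Gcg, -0.33 for Reg4 and -0.31 for Chgb. Reg4 and Chgb were lower on each day and most so on day 3, whereas Gcg was at 0.03, 0.22 and -0.34. Among further hormones it was 1.27 for Gip (-0.50, -0.36 and 0.84 on the 3 days), -1.55 for Nts (1.10, 1.07 and -0.47) and -0.92 for Sst (0.13, 0.09 and -0.80). Among granule and release genes it was -0.45 for Cpe, which trims cut prohormones (0.27, 0.23 and -0.20), -0.32 for Ptprn2, -0.28 for Unc13b and -0.91 for the calcium channel gene Cacna1d (0.19, 0.49 and -0.58). It was 0.29 for Maoa, whose fall was smaller on day 3, and -0.77 for Lmx1a, a transcription factor of enterochromaffin cells. The INT-777 library on day 3 is a single library, and DESeq2 called 44 genes in all where edgeR called 912.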

How the results depend on the processing

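The comparison of the treatments without the block called 232 genes and 0 members. It called 435 genes without the low-count filter (1 member higher) and 798 with DESeq2 (1 higher). The replicate block, which pairs libraries by day, called 3415 genes (2 members higher, 5 lower), and with DESeq2 2274 (1 higher, 4 lower). Leaving out 1 library gave 8 to 273 genes without the block. Leaving out both libraries of day 1, 2 or 3 gave 0, 3 and 4292 genes without the block, with 4 members higher and 4 lower only in the last. With the replicate block it gave 3247 genes (1 higher, 4 lower), 1940 (1 higher, 3 lower) and 3853 (3 higher, 4 lower), a choice made after seeing the data. The test between days called 3273 genes and 9 members, and 2010 to 4867 genes and 8 to 9 members with 1 library left out. The test of the day 3 term called 912 genes and 3 members, and with DESeq2 44 genes and 1 member. It was not run with a library left out, which leaves no residual degrees of freedom. Without the block, Chga differed by -0.00 (log2), but by 0.061 with limma-voom, 0.056 with the replicate block, 0.049 with that block in DESeq2, and 0.12 without day 3. In the replicate block without day 1, 2 or 3 it differed by 0.034, 0.0034 and 0.12. Without day 3, with or without the replicate block, Gcg turned to 0.12 and Sst to 0.11. Unblocked values with 1 library left out changed sign for 18 genes, none of them called without the block: Chga (-0.97 to 1.07), Chgb (-1.29 to 0.77), Tac1 (-1.02 to 1.17), Cck (-1.09 to 0.73), Sct (-1.02 to 0.40), Ghrl (-0.31 to 1.499), Gcg (-0.55 to 0.54), Tph1 (-1.36 to 0.58), Sst (-1.15 to 0.76), Ptprn2 (-1.20 to 0.55), Resp18 (-1.44 to 0.49), Pcsk1 (-1.27 to 0.63), Snap25 (-1.05 to 0.31), Cplx2 (-1.09 to 0.44), Neurog3 (-1.31 to 0.64), Nkx2-2 (-1.59 to 0.69), Rfx6 (-1.36 to 0.87) and Myt1 (-1.38 to 0.61). In such settings the treatment groups hold different days. Reg4 and Pyy kept their direction in all alternatives run, but without the block Reg4 ranged from -2.29 to -0.30 with 1 library left out. Counts of 58 to 311 for Ghrl and 90 to 218 for Pyy limit the precision of their values.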

Other observations

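Several hormones were at or near the limit of detection. Ppy, the pancreatic polypeptide gene, had 0 counts in every library, and Gast, the gastrin gene, had 1 count in a single INT-777 library. Iapp had 34, 33 and 43 counts in the DMSO libraries and 23, 30 and 66 in the INT-777 libraries. Ucn3 had 14, 7 and 54 counts and then 20, 10 and 35, so it was higher on day 3 in both groups. Lgr5, the gene that carries the reporter, was at 72.4, 74.5 and 62.2 CPM under DMSO and at 67.2, 64.6 and 53.7 CPM under INT-777. It was lower under INT-777 on every day, by 0.17 ± 0.05 (SE, log2) with the day as a block (edgeR adjusted p = 0.0133) and with an adjusted p of 0.447 without it. The call with the block was lost without day 2 (edgeR adjusted p = 0.151).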
